A study of Mus musculus with 12 samples.

Results

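The genes described here are 53 genes of mitosis, chosen by name from a list of spindle, kinetochore, checkpoint and condensin genes, out of the 47069 genes of the deposited table. Each of the 53 symbols was found for 1 gene, all 53 passed the filter on low values and all 53 were above 0 in each of the 12 libraries. The study compared wild type (WT) mice with Cdk1 Liv-/- mice, in which floxed Cdk1 alleles (Cdk1 flox/flox) are removed by Albumin-Cre, at postnatal day 14 (P14). Polyadenylated RNA was sequenced from isolated hepatocytes and from whole liver, with 3 libraries for each of the 4 groups of genotype and compartment. Albumin-Cre acts in the hepatocyte lineage, and whole liver libraries also hold RNA of other cells. The labels give no further allele in WT mice and no strain, and the study's methods state that male mice were used. Values are FPKM, read counts corrected for transcript length and library size, as the authors deposited them.

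Mitosis begins when the kinase made of Cdk1 and a B-type cyclin becomes active, after which chromosomes condense, a spindle of microtubules forms and kinetochores attach each chromosome to it. The spindle checkpoint holds back the anaphase-promoting complex until all chromosomes are attached, and that complex then marks securin and cyclin B for destruction. Hepatocytes still divide in the young mouse liver, and many of them later become polyploid by ending the cycle without full division.

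Cdk1, the targeted gene, was checked first. In WT hepatocytes it was at 27.9, 20.4 and 28.2 FPKM, and in Cdk1 Liv-/- hepatocytes at 9.68, 11.8 and 6.87 FPKM, with the libraries of a group named in the order of replicates 1, 2 and 3 here and throughout. In whole liver the values were 25.3, 22.7 and 21.5 FPKM in WT and 11.7, 12.1 and 14.2 FPKM in Cdk1 Liv-/-. The Cdk1 Liv-/- values did not reach the lowest WT value in either compartment, and the fall passed the test described for the other genes in each (log2 fold change -1.40, limma's adjusted p = 0.0148 in hepatocytes, and -0.85, adjusted p = 0.00353 in whole liver, or -1.03 relative to the median of all genes). The value covers all exons of the gene, including those that Cre does not remove.

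A pair of libraries stood apart from their groups, in sex-linked genes or in markers of other liver cells. Cdk1 Liv-/- whole liver replicate 3 had Xist, the RNA of the inactive X chromosome, at 158 FPKM, with Kdm5d, Uty, Eif2s3y and Ddx3y of the Y chromosome listed at 0, although male mice are named in the methods. WT hepatocyte replicate 3 was the highest hepatocyte library in the summed markers of each type of other liver cell except cholangiocytes, whose markers were higher in the Cdk1 Liv-/- hepatocyte libraries. Its hemoglobin gene Hbb-bs was at 222 FPKM, against 65.6 and 39.3 FPKM in WT hepatocyte replicates 1 and 2. Its scavenger receptor gene Stab1, typical of sinusoidal endothelium, was at 51.9 FPKM, against 22.7 and 14.45 FPKM. The counts over the 53 genes are also given without each of these libraries.

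Summed over the 53 genes, FPKM was 372, 297 and 373 in WT hepatocytes and 912, 1061 and 565 in Cdk1 Liv-/- hepatocytes. The sums in whole liver were 391, 367 and 314 in WT and 567, 528 and 666 in Cdk1 Liv-/-. Both Cdk1 Liv-/- groups lay above their WT groups with no overlap, and Cdk1 Liv-/- hepatocyte replicate 3 lay within the range of Cdk1 Liv-/- whole liver. That library was the lowest of its group for 51 of the 53 genes, and WT hepatocyte replicate 2 was the lowest of its group for 48. In whole liver the Xist-positive Cdk1 Liv-/- replicate 3 was the highest of its group for 45, and WT replicate 3 the lowest for 44. These genes made up 0.0435% to 0.0567% of all FPKM in WT hepatocytes and 0.0859% to 0.163% in Cdk1 Liv-/- hepatocytes. In such bulk samples, fewer cells of a type and less RNA per cell cannot be told apart, and the same holds for more dividing or arrested cells and more RNA in each. The heat map of all 53 genes shows that the rise was shared by most of them, and that the libraries of a group differed in its size.

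**Figure D1:**
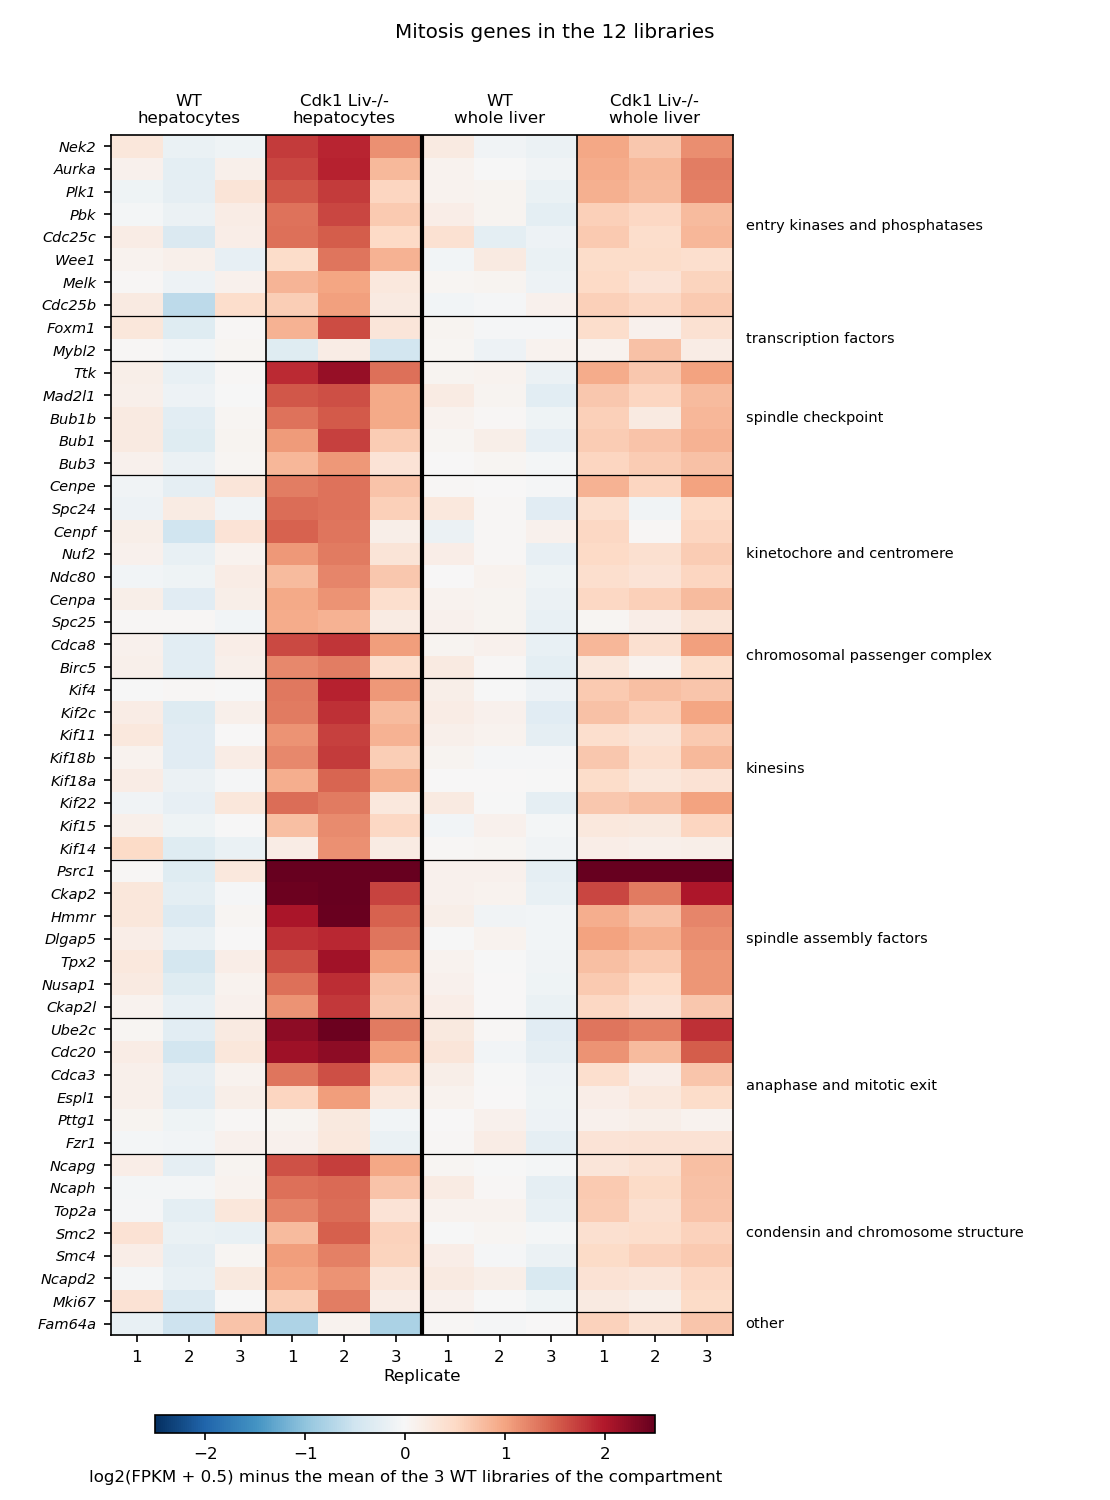
Each of the 53 genes (lines) in each of the 12 libraries (columns), as log2(FPKM + 0.5) minus the mean of the 3 WT libraries of the same compartment, ordered by role. Cdk1 Liv-/- hepatocyte replicate 3 is paler than replicates 1 and 2 for most genes, Fam64a and Mybl2 are not raised as a group in hepatocytes, and Psrc1 and the highest value of Ckap2 lie beyond the end of the colour scale.

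Genotypes were compared within each compartment with limma on log2(FPKM + 0.5) over the 17386 genes with a mean of at least 0.1 FPKM, with p-values adjusted by the Benjamini-Hochberg method. A gene passed where its adjusted p did not exceed 0.1, and was called if its log2 fold change was also at least 1 in size. The p-values measure the spread between these libraries. The study's methods name biological replicates for all experiments, and the labels do not say which libraries came from separate mice.

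In hepatocytes, 42 of the 53 mitosis genes were higher in Cdk1 Liv-/- than in WT past the adjusted p, where 12.1% of all genes tested were. None was lower past it, against 6.61% of all genes, and none was lower at an unadjusted p under 0.05 either. The calls with a log2 fold change of at least 1 numbered 29 higher, against 4.20% of all genes, and 0 lower, against 2.17%. The median log2 fold change was 1.12 over the 53 genes and 0.049 over all genes, and 51 of the 53 were above 0. All 3 Cdk1 Liv-/- libraries lay above all 3 WT libraries for 44 of the 53, which held for 20.6% of all genes, and below them for 0, against 13.4%. With no filter on low values 22 passed, and at an adjusted p of 0.05, 26. The 20 genes that no longer passed with no filter were Plk1, Wee1, Cdc25c, Melk, Pbk, Bub1, Bub3, Nuf2, Spc25, Cenpa, Birc5, Kif2c, Kif15, Kif18b, Nusap1, Ckap2l, Cdca3, Smc2, Ncapd2 and Top2a. The counts also moved with single libraries. Without WT replicate 1, 19 genes passed, without WT replicate 2, 24, and without WT replicate 3, 26. They numbered 22 without Cdk1 Liv-/- replicate 1, 25 without replicate 2 and 44 without replicate 3. In each of these 6 fits the same 18 of the 42 genes passed, among them Aurka, Nek2, Bub1b, Mad2l1, Ttk, Hmmr, Psrc1, Ckap2, Cdc20, Ube2c, Ncapg and Ncaph. The count of genes called was 19 without WT replicate 1 and 40 without Cdk1 Liv-/- replicate 3 and lay between these without each of the others.

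In whole liver, 45 of the 53 genes were higher in Cdk1 Liv-/- past the adjusted p, where 38.0% of all genes were, and 0 were lower, against 7.53%. At an unadjusted p under 0.05, limma gave 45 genes, all of them higher, and 8109 of the 17386 genes tested in either direction. The calls numbered 6 higher, against 4.59% of all genes, and 0 lower, against 1.00%. The 6 were Psrc1, Ckap2, Ube2c, Cdc20, Aurka and Dlgap5. The median log2 fold change over all genes was 0.18 in whole liver, and dividing FPKM by median-ratio size factors shifted it by -0.17, to 0.013. Some changes in whole liver are therefore also given relative to the median of all genes, and the others are not corrected for it. The median of the 53 genes was 0.58 (0.40 past the all-gene median), and 0.37 with the size factors (0.35 past it). Of the 53, 50 were above the median of all genes. With the size factors 31 of the 53 passed, all higher, against 17.9% of all genes higher and 16.4% lower, and 3 were called, these being Psrc1, Ckap2 and Ube2c. The 14 genes that no longer passed were Wee1, Cdc25c, Foxm1, Bub1b, Nuf2, Kif11, Kif15, Kif18a, Ckap2l, Fzr1, Espl1, Cdca3, Ncapg and Mki67. In a fit of all 12 libraries 15 genes no longer passed, which were Wee1, Cdc25b, Cdc25c, Foxm1, Nuf2, Kif11, Kif15, Kif18a, Ckap2l, Espl1, Cdca3, Smc2, Top2a, Mki67 and Fam64a. With the Xist-positive Cdk1 Liv-/- replicate 3 left out, 37 passed and the same 3 were called. The count of genes called was 9 without WT replicate 1 or Cdk1 Liv-/- replicate 2 and 4 without WT replicate 3. The libraries of the genotypes did not overlap, with Cdk1 Liv-/- above, for 47 of the 53 genes, against 43.2% of all genes, and with Cdk1 Liv-/- below for 0, against 8.94%.

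Of the 53 genes, 38 passed in both compartments, 4 in hepatocytes alone, 7 in whole liver alone and 4 in neither. All that passed were higher, and of all genes 9.27% were higher past the adjusted p in both, 2.85% in hepatocytes alone, 28.7% in whole liver alone and 59.1% in neither. The 4 in hepatocytes alone were Spc24, Spc25, Birc5 and Ncapd2, and the 4 in neither were Mybl2, Cenpf, Kif14 and Pttg1. Cdc25b, Foxm1, Kif22, Fzr1, Espl1, Mki67 and Fam64a passed in whole liver alone. This split is that of the main fit. Leaving out single libraries gave 19 to 44 genes higher in hepatocytes and 37 to 44 in whole liver. Passing in a single compartment does not show that the compartments differ, so the difference between the changes was tested itself. The test was an interaction term in a model with all 12 libraries. The log2 fold change was larger in hepatocytes than in whole liver for 49 of the 53 genes, and the difference passed an adjusted p of 0.1 for 3 of them, Ttk, Ncapg and Kif18a, against 2.35% of all genes. None was past it in the other direction, against 7.49% of all genes. At an unadjusted p under 0.05 by limma, in either direction, were 13 of the 53 genes and 4106 of the 17386 genes tested. With median-ratio size factors the count in the other direction was also 0, against 2.83% of all genes. A difference of at least 1 in size that also passed was found for 0 genes higher, against 0.805% of all genes, and 0 lower, against 3.15%. That count higher was 5 without Cdk1 Liv-/- hepatocyte replicate 3, 1 without Cdk1 Liv-/- whole liver replicate 3, 3 with median-ratio size factors, and 1 with a pseudocount of 0.1 or 1 or a filter of 1 FPKM. The median difference was 0.49 over the 53 genes and -0.11 over all genes. The count of 3 was 7 with median-ratio size factors, against 3.15% of all genes, 5 with a pseudocount of 1, 4 with a filter of 1 FPKM, and 2 with a pseudocount of 0.1 or FPKM rescaled to the same sum. With no filter, and at an adjusted p of 0.05 by limma, it was 0. Single libraries moved it as well. Without Cdk1 Liv-/- hepatocyte replicate 3 it was 15, without WT hepatocyte replicate 2 it was 2, and without Cdk1 Liv-/- hepatocyte replicate 1 or Cdk1 Liv-/- whole liver replicate 3 it was 1. Without any of WT hepatocyte replicates 1 and 3, Cdk1 Liv-/- hepatocyte replicate 2, WT whole liver replicates 1, 2 and 3, and Cdk1 Liv-/- whole liver replicates 1 and 2 it was 0, and 0 also without both libraries that stood apart. In the other direction, Fam64a passed without WT hepatocyte replicate 2 and without Cdk1 Liv-/- hepatocyte replicate 2.

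**Figure D2:**
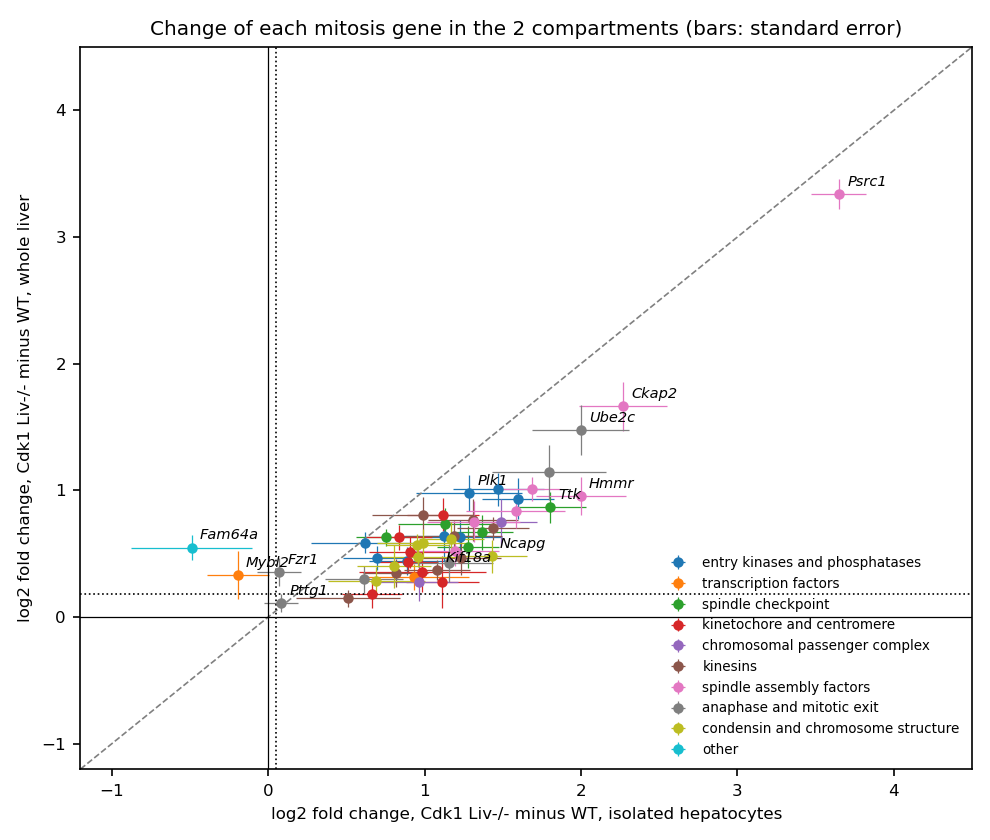
Log2 fold change of each of the 53 genes, Cdk1 Liv-/- minus WT, in isolated hepatocytes (horizontal) and whole liver (vertical), with standard errors as bars, roles as colours, the dashed line where the changes are equal and dotted lines at the medians of all genes (0.049 and 0.18). Psrc1 stands far from the rest in both compartments, at 3.65 and 3.34, and 49 genes lie below the dashed line.

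WT hepatocytes and WT whole liver differed for 0 of the 53 genes past limma's adjusted p, against 0.224% of all genes higher in hepatocytes and 2.71% lower. An unadjusted p under 0.05 was found by limma for 1 of the 53, against 3049 of the 17386 genes tested. None reached a size of 1 as well, against 0.0920% of all genes higher and 0.828% lower. The libraries did not overlap for 1 gene higher in hepatocytes, against 5.28% of all genes, and 1 lower, against 20.7%. The median difference was -0.0024 over the 53 genes and -0.097 over all genes, and that of the 53 turned to 0.11 with median-ratio size factors and to 0.035 with FPKM rescaled to the same sum. Without WT hepatocyte replicate 3, 1 gene passed, Fam64a, which was then lower in hepatocytes. In Cdk1 Liv-/- mice, 32 of the 53 genes were higher in hepatocytes than in whole liver, against 11.1% of all genes, and 3 were lower, against 39.9%. A fit of the 6 libraries of that genotype gave 20 higher and 3 lower. The 3 lower genes were Fam64a, Fzr1 and Pttg1, at log2 differences of -1.62, -0.44 and -0.29. With median-ratio size factors the counts were 42 higher, against 24.1% of all genes, and 1 lower, which was Fam64a, against 23.2%. The median difference was 0.56 over the 53 genes and -0.19 over all genes. A size of at least 1 was reached by 2 genes upwards, Hmmr and Ttk, against 1.59% of all genes, and by 1 downwards, Fam64a, against 9.67%. The count of 2 was 10 without Cdk1 Liv-/- hepatocyte replicate 3, 4 without Cdk1 Liv-/- whole liver replicate 3, 3 without Cdk1 Liv-/- hepatocyte replicate 1, 1 without replicate 2 of either Cdk1 Liv-/- group, 9 with median-ratio size factors, and 4 and 1 with pseudocounts of 0.1 and 1. The libraries did not overlap for 18 genes higher in hepatocytes, against 10.5% of all genes, and 3 lower, against 40.3%. Without Cdk1 Liv-/- hepatocyte replicate 2 or Cdk1 Liv-/- whole liver replicate 2, 16 genes were higher, and without Cdk1 Liv-/- hepatocyte replicate 3, 44. Leaving out Cdk1 Liv-/- whole liver replicate 3 gave 31. In 45 of the 53 genes the group means rose from both WT groups to Cdk1 Liv-/- whole liver and from there to Cdk1 Liv-/- hepatocytes.

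The promoters of these genes were read because genes of this kind are known to be controlled in part through shared elements near their starts. The cell cycle genes homology region (CHR, here TTTGAA or TTCGAA) and the CCAAT box (CCAAT) are bound by complexes that repress the genes in resting cells or activate them before mitosis, and E2F sites were written as TTTCCCGC, TTTGGCGC, TTTCGCGC or TTTGCCGC. Windows of 300 bases, from 250 before to 50 after each annotated start, came from RefSeq on build GRCm38.p6 and were searched on both strands. They held 46 promoters of 44 of the 53 genes. Cdc25c, Dlgap5, Fam64a, Foxm1, Pbk, Smc4, Spc24, Tpx2 and Wee1 had no entry. A CHR was found in 34 of the 46 (73.9%), where 19.2% of all 32851 promoters held a match, and a CCAAT box in 34 (73.9%), against 37.4%. Both were found in 31 (67.4%), against 7.53% of all promoters, and an E2F site in 4 (8.70%), against 2.27%. In 28 of the 46 (60.9%) a CHR began within 50 bases of the start, against 5.31%, a distance chosen after the positions were seen. In the other mitosis genes described further on, 36.4% of 99 promoters held a CHR, 55.6% a CCAAT box, 20.2% both and 11.1% an E2F site, the last above the share in the 53 genes. Of the matches in the 46 promoters, 1 overlapped a match of another motif. A match is a run of letters and not a site shown to be bound.

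The promoters shown are those of the 5 genes with a CHR that had the largest log2 fold changes in hepatocytes, of Plk1 and Top2a, and of Pttg1, whose window held no match and whose RNA differed little between genotypes. Each is given 5′ to 3′ on the strand of the gene, from 170 bases before the start to 30 bases from it, with CHR and CCAAT matches in capitals. On the other strand a CCAAT box reads ATTGG, and a CHR reads TTCAAA, or TTCGAA again. The stretches are Psrc1 at chr3:108383634-108383833 on the plus strand, Ckap2 at chr8:22185790-22185989 on the minus strand, Ube2c at chr2:164769759-164769958 on the plus strand and Hmmr at chr11:40733408-40733607 on the minus strand. Ttk lies at chr9:83834519-83834718 on the plus strand, Plk1 at chr7:122159265-122159464 on the plus strand, Top2a at chr11:99024160-99024359 on the minus strand and Pttg1 at chr11:43425952-43426151 on the minus strand.
Psrc1: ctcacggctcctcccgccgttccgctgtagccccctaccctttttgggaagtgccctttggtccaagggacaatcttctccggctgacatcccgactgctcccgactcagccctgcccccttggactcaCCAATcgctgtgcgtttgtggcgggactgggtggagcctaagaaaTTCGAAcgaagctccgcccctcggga
Ckap2: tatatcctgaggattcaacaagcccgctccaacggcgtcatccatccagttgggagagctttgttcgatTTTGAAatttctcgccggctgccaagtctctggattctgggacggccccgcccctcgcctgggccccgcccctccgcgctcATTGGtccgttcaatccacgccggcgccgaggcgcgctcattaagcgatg
Ube2c: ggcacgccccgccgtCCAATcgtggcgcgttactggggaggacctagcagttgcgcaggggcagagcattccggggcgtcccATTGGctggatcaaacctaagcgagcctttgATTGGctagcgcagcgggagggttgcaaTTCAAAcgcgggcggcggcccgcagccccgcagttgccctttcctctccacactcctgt
Hmmr: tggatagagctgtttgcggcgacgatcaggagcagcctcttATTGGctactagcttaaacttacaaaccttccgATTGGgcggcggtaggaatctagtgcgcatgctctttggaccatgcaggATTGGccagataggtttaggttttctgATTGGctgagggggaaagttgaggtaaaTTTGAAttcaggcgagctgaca
Ttk: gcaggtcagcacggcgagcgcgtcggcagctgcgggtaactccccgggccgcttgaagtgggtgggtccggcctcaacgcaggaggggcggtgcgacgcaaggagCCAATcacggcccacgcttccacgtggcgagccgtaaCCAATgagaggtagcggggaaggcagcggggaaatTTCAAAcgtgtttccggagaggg
Plk1: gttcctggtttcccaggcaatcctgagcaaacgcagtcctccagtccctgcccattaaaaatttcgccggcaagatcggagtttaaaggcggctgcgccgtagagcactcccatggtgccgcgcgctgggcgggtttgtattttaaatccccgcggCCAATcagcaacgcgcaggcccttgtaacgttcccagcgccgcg
Top2a: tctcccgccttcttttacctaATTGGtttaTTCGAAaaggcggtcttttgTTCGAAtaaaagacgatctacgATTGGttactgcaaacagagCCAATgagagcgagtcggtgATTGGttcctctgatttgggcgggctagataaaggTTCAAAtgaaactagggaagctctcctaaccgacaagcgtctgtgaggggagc
Pttg1: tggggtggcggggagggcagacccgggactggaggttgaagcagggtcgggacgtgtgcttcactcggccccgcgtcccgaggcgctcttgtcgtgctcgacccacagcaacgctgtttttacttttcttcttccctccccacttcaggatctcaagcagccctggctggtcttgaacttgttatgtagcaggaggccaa

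In Psrc1, Hmmr and Ttk the CHR began 4, 8 and 7 bases after the start, with a CCAAT box 41, 20 and 28 bases before it. Psrc1 has 2 annotated starts, and from the other the CHR began 30 bases and the CCAAT box 75 bases before the start. Ube2c had its CHR 29 bases before the start and its nearest CCAAT box 57 bases before it, and Ckap2 had its CHR 101 bases before the start. Top2a had a CHR at 4 places, of which the farthest lies outside the stretch shown. The CHR of Plk1 began 30 bases after the start, just beyond the stretch shown, and its CCAAT box 14 bases before the start. In the 29 genes with both motifs, the median log2 fold change was 1.19 in hepatocytes, with 23 past the adjusted p, and 0.63 in whole liver, with 25, where 12.1% and 38.0% of all genes were higher. In the 9 genes with neither, which were Birc5, Kif18a, Mad2l1, Melk, Mybl2, Ncaph, Nuf2, Nusap1 and Pttg1, it was 0.96, with 7, and 0.47, with 6. These medians are descriptions, and the difference between the classes was not tested. The counts come from the main fit, and over all 53 genes the 42 past in hepatocytes fell to 19 without WT replicate 1.

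**Figure D3:**
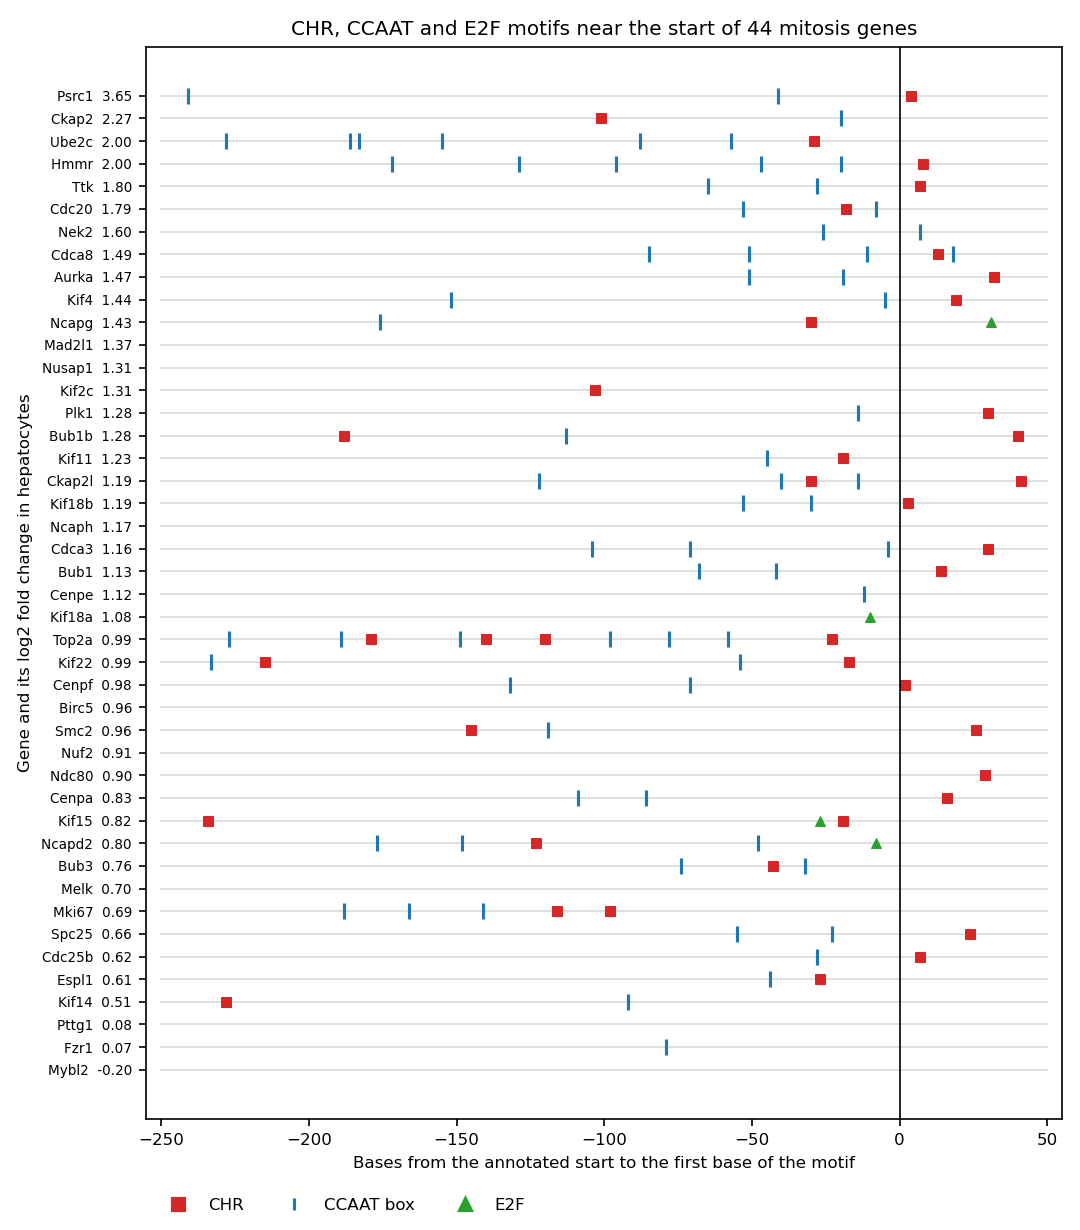
Positions of CHR, CCAAT and E2F matches relative to the annotated start (bases, horizontal) in 44 of the mitosis genes, ordered by log2 fold change in hepatocytes, with 1 start drawn for each gene. Many CHR matches lie within 50 bases of the start, as counted in 60.9% of the promoters, and 9 genes have neither a CHR nor a CCAAT box.

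Counts by role are read against the 12.1% of all genes higher in hepatocytes and the 38.0% in whole liver. Of 8 kinases and phosphatases of mitotic entry, 7 were higher past the adjusted p in hepatocytes, with Cdc25b not past it (median log2 fold change 1.18), and 8 in whole liver (median 0.64, which is 0.45 past the all-gene median). Aurka (ENSMUSG00000027496) encodes the kinase that matures centrosomes into spindle poles. It was at 8.68, 6.67 and 8.74 FPKM in WT and 26.5, 31.7 and 14.4 FPKM in Cdk1 Liv-/- hepatocytes, and at 7.69, 7.12 and 6.75 and 14.1, 13.0 and 18.2 FPKM in WT and Cdk1 Liv-/- whole liver. The genotypes did not overlap in either compartment, and Cdk1 Liv-/- hepatocyte replicate 3 lay among the whole liver libraries of its genotype. Its log2 fold change was 1.47 (SE 0.29, limma's adjusted p = 0.0300) in hepatocytes and 1.01 (SE 0.13, adjusted p = 0.00480) in whole liver, 0.83 above the median of all genes. Nek2 (ENSMUSG00000026622), a kinase that separates centrosomes, was at 7.35, 5.21 and 5.43 FPKM in WT and 21.0, 23.6 and 13.7 FPKM in Cdk1 Liv-/- hepatocytes. In whole liver it was at 6.21, 4.92 and 4.67 FPKM in WT and 10.7, 8.62 and 12.4 FPKM in Cdk1 Liv-/-. Even the lowest Cdk1 Liv-/- hepatocyte value exceeded all whole liver values. Its changes were 1.60 (SE 0.23, adjusted p = 0.0113) and 0.93 (SE 0.16, adjusted p = 0.0101), the second 0.75 above the median of all genes.

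Plk1 (ENSMUSG00000030867), the polo kinase that acts at centrosomes, kinetochores and the midbody, was at 4.61, 4.23 and 6.36 FPKM in WT and 15.7, 18 and 7.49 FPKM in Cdk1 Liv-/- hepatocytes. Its whole liver values were 5.58, 5.52 and 4.61 FPKM in WT and 10.1, 9.43 and 13.1 FPKM in Cdk1 Liv-/-. Cdk1 Liv-/- hepatocyte replicate 3 was the lowest of its group by far and lay just above WT replicate 3. The change in hepatocytes, 1.28 (SE 0.34, limma's adjusted p = 0.0642), no longer passed without WT replicate 1 (0.168) or 2 (0.147) or Cdk1 Liv-/- replicate 1 (0.159) or 2 (0.152) (adjusted p from 0.00749 to 0.168 over all alternatives). The change in whole liver was 0.98 (SE 0.14, adjusted p = 0.00650), 0.80 above the median of all genes. Pbk and Melk, kinases of dividing cells, had log2 fold changes of 1.23 and 0.70 in hepatocytes and 0.63 and 0.47 in whole liver. In hepatocytes Pbk no longer passed without WT replicate 1 (0.118) or Cdk1 Liv-/- replicate 1 (0.111) (adjusted p from 0.00307 to 0.118 over all alternatives), and Melk without WT replicate 1 (0.203), 2 (0.209) or 3 (0.158) or Cdk1 Liv-/- replicate 1 (0.211) or 2 (0.219) (adjusted p from 0.0142 to 0.219 over all alternatives). Wee1, the kinase that inhibits Cdk1, was at 2.71, 2.83 and 2.12 FPKM in WT and 3.68, 7.13 and 5.07 FPKM in Cdk1 Liv-/- hepatocytes. The groups did not overlap, although replicate 3 was not the lowest here. Its change of 0.89 (limma's adjusted p = 0.0714) no longer passed without WT replicate 1 (0.157), 2 (0.120) or 3 (0.167) or Cdk1 Liv-/- replicate 2 (0.135) or 3 (0.167) (adjusted p from 0.00863 to 0.167 over all alternatives). The phosphatases Cdc25b and Cdc25c activate Cdk1. In hepatocytes Cdc25b was at 2.38, 1.06 and 2.86 FPKM in WT and 3.27, 4.52 and 2.39 FPKM in Cdk1 Liv-/-, groups that overlapped, and it did not pass (limma's adjusted p = 0.296). Whole liver libraries held it at 2.54, 2.61 and 2.94 and 4.31, 4.08 and 4.51 FPKM, with no overlap and a change of 0.59 (adjusted p = 0.00555), which did not pass in a fit of all 12 libraries (0.129, with 0.00334 to 0.129 across the alternatives). Cdc25c rose by 1.12 on the log2 scale in hepatocytes and 0.64 in whole liver. It no longer passed in hepatocytes without WT replicate 1 (0.149), 2 (0.167) or 3 (0.132) or Cdk1 Liv-/- replicate 1 (0.178) or 2 (0.182) (adjusted p from 0.0140 to 0.182 over all alternatives), and in whole liver without WT replicate 2 (0.133) or 3 (0.135) or Cdk1 Liv-/- replicate 1 (0.108) or 3 (0.135) (adjusted p from 0.0307 to 0.154 over all alternatives).

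**Figure D4:**
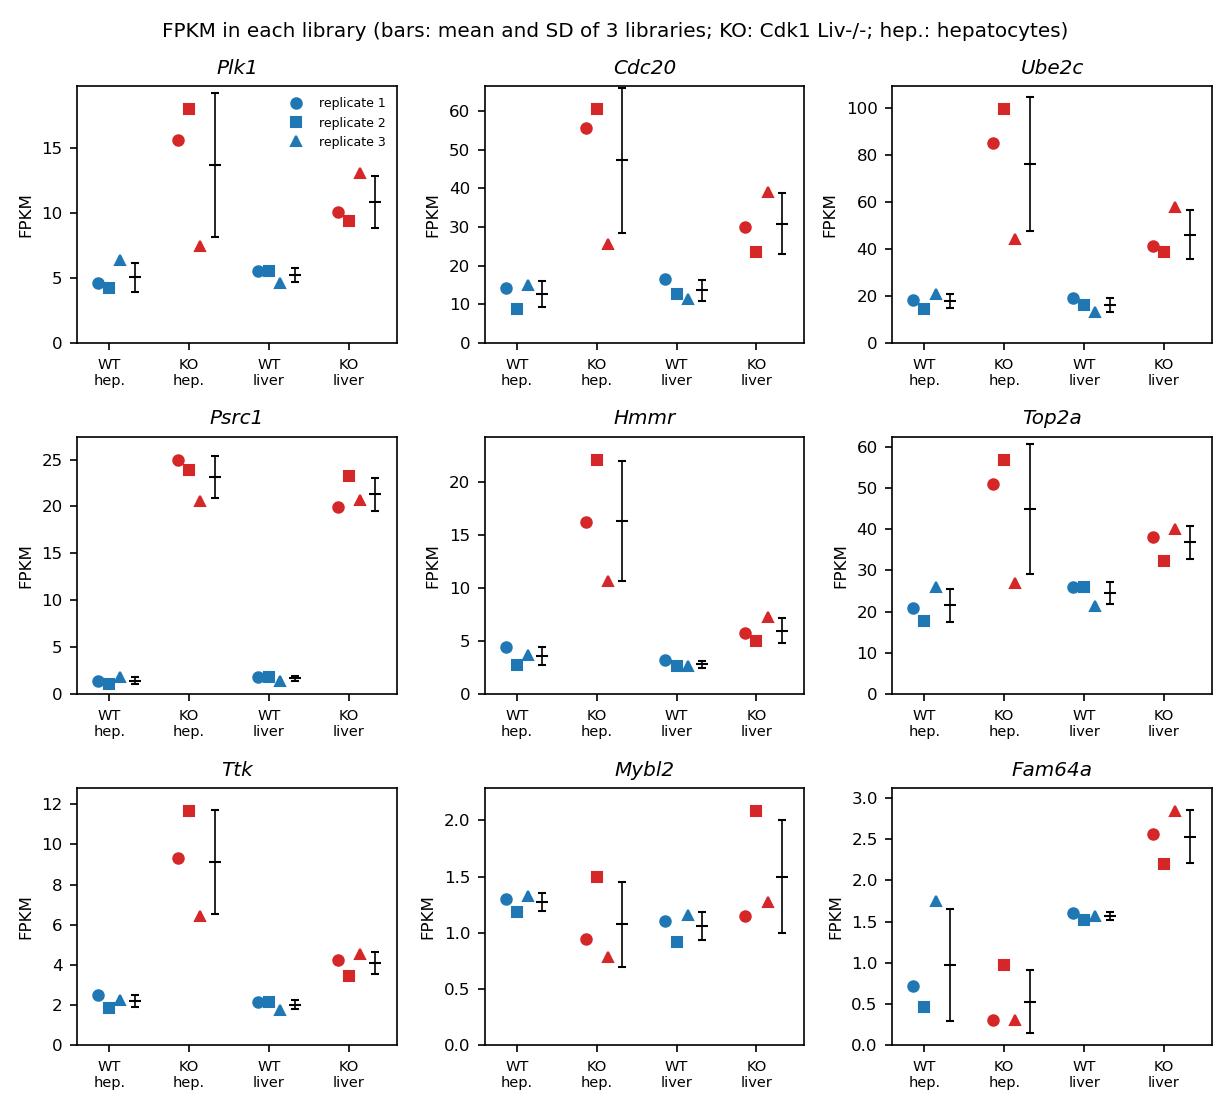
FPKM of 9 mitosis genes in each library by group, with bars for the mean and SD of 3 libraries and the shape of a point for the replicate number. Cdk1 Liv-/- hepatocyte replicate 3 is the lowest of its group in the panels of Plk1, Cdc20, Ube2c, Psrc1, Hmmr, Top2a, Ttk, Mybl2 and Fam64a, and Mybl2 and Fam64a overlap between the hepatocyte genotypes.

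Foxm1 and Mybl2 encode transcription factors that activate genes of late cell cycle phases. Foxm1 (ENSMUSG00000001517) was at 4.72, 2.99 and 3.92 FPKM in WT and 7.34, 12.9 and 4.84 FPKM in Cdk1 Liv-/- hepatocytes. Levels in whole liver were 3.58, 3.32 and 3.34 FPKM in WT and 4.84, 3.73 and 4.61 FPKM in Cdk1 Liv-/-. No Cdk1 Liv-/- library lay below a WT library of its compartment, but replicate 3 in hepatocytes was barely above WT replicate 1. The log2 fold change of 0.93 (SE 0.35) did not pass in hepatocytes (limma's adjusted p = 0.145). It did without Cdk1 Liv-/- replicate 3 (0.0838, with 0.0318 to 0.300 across the alternatives). In whole liver the change was 0.32 (adjusted p = 0.0656), 0.13 above the median of all genes, and it no longer passed without WT replicate 1 (0.125), 2 (0.157) or 3 (0.1501) or Cdk1 Liv-/- replicate 1 (0.14998) or 3 (0.163) (adjusted p from 0.0189 to 0.498 over all alternatives). Mybl2 (ENSMUSG00000017861) was at 1.3, 1.18 and 1.33 FPKM in WT and 0.94, 1.5 and 0.78 FPKM in Cdk1 Liv-/- hepatocytes, and at 1.1, 0.92 and 1.16 and 1.15, 2.08 and 1.27 FPKM in whole liver. The genotypes overlapped in both compartments. Mybl2 and Fam64a were the genes with a log2 fold change below 0 in hepatocytes, at -0.20 (SE 0.20, limma's adjusted p = 0.558) for Mybl2, and its change in whole liver was 0.33 (SE 0.19, adjusted p = 0.212).

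The 5 genes of the spindle checkpoint, whose proteins sit on unattached kinetochores and hold back anaphase, all passed in both compartments, with medians of 1.28 and 0.67, the second 0.49 above that of all genes. Bub3 (ENSMUSG00000066979), which recruits other checkpoint proteins, was at 14.6, 12.2 and 14.1 FPKM in WT and 24.7, 29.4 and 17.4 FPKM in Cdk1 Liv-/- hepatocytes. The whole liver libraries gave 14.1, 14.5 and 13.5 FPKM in WT and 20.5, 21.9 and 23.6 FPKM in Cdk1 Liv-/-. The genotypes did not overlap, and the whole liver libraries of a group lay close together. Its log2 fold change was 0.76 (SE 0.20, limma's adjusted p = 0.0611) in hepatocytes, no longer past without WT replicate 1 (0.134), 2 (0.144) or 3 (0.127) or Cdk1 Liv-/- replicate 1 (0.149) or 2 (0.124) (adjusted p from 0.00589 to 0.149 over all alternatives), and 0.63 (SE 0.067, adjusted p = 0.00293) in whole liver, 0.45 above the median of all genes. Mad2l1 (ENSMUSG00000029910), the inhibitor that binds Cdc20, was at 10.04, 8.3 and 9.05 FPKM in WT and 27.8, 28.8 and 17.9 FPKM in Cdk1 Liv-/- hepatocytes. For whole liver the values were 11.6, 10.5 and 8.21 FPKM in WT and 16.3, 14.7 and 17.7 FPKM in Cdk1 Liv-/-. All Cdk1 Liv-/- hepatocyte libraries were above all whole liver libraries, the lowest of them only just. The changes were 1.37 (SE 0.20, adjusted p = 0.0109) and 0.67 (SE 0.14, adjusted p = 0.0168).

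Ttk (ENSMUSG00000038379), the Mps1 kinase that starts checkpoint signalling, was at 2.49, 1.86 and 2.25 FPKM in WT and 9.3, 11.6 and 6.45 FPKM in Cdk1 Liv-/- hepatocytes. In whole liver it was at 2.12, 2.14 and 1.75 FPKM in WT and 4.25, 3.46 and 4.53 FPKM in Cdk1 Liv-/-. The lowest Cdk1 Liv-/- hepatocyte value exceeded all Cdk1 Liv-/- whole liver values, and those exceeded all WT values. The log2 fold change was 1.80 (SE 0.23, limma's adjusted p = 0.00725) in hepatocytes and 0.87 (SE 0.12, adjusted p = 0.00596) in whole liver. The difference between them was 0.94 (SE 0.27, adjusted p = 0.0818). Bub1 and Bub1b had changes of 1.13 and 1.28 in hepatocytes and 0.74 and 0.55 in whole liver. In hepatocytes Bub1 no longer passed without WT replicate 1 (0.124), 2 (0.147) or 3 (0.131) or Cdk1 Liv-/- replicate 1 (0.136) or 2 (0.111) (adjusted p from 0.00692 to 0.153 over all alternatives), and in whole liver Bub1b without WT replicate 1 (0.102), 2 (0.111) or 3 (0.130) or Cdk1 Liv-/- replicate 1 (0.108) (adjusted p from 0.0154 to 0.189 over all alternatives).

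Of 7 kinetochore and centromere genes, 6 passed in hepatocytes, with a median of 0.91, and 4 in whole liver, with a median of 0.44 (0.25 past the all-gene median). Spc25 (ENSMUSG00000005233), part of the Ndc80 complex that grips microtubule ends, was at 30.4, 30.1 and 28.4 FPKM in WT and 56.4, 54.1 and 34.3 FPKM in Cdk1 Liv-/- hepatocytes. Its whole liver values were 31.2, 30.1 and 25.2 FPKM in WT and 29.8, 32.2 and 35.9 FPKM in Cdk1 Liv-/-. The genotypes did not overlap in hepatocytes and did in whole liver. Its change in hepatocytes was 0.66 (SE 0.19, limma's adjusted p = 0.0810), no longer past without WT replicate 1 (0.177), 2 (0.155) or 3 (0.180) or Cdk1 Liv-/- replicate 1 (0.180) or 2 (0.194) (adjusted p from 0.00992 to 0.194 over all alternatives). Whole liver gave a change of 0.18 (SE 0.11, adjusted p = 0.239), which turned to -0.040 with median-ratio size factors. Cenpa (ENSMUSG00000029177), the histone that marks centromeres, was at 21.2, 15.6 and 21.3 FPKM in WT and 37.6, 42.3 and 26 FPKM in Cdk1 Liv-/- hepatocytes. Whole liver libraries held it at 21.0, 20.8 and 17.8 FPKM in WT and 28.4, 30.2 and 34.5 FPKM in Cdk1 Liv-/-. It did not overlap in either compartment, and the Cdk1 Liv-/- libraries of the compartments overlapped. Its changes were 0.83 (SE 0.21, adjusted p = 0.0580), no longer past without WT replicate 1 (0.123), 2 (0.128) or 3 (0.104) or Cdk1 Liv-/- replicate 1 (0.146) or 2 (0.139) (adjusted p from 0.00674 to 0.146 over all alternatives), and 0.63 (SE 0.10, adjusted p = 0.00807). Cenpe, the kinesin that carries chromosomes to the spindle equator, had changes of 1.12 and 0.81, and Ndc80, a microtubule-binding subunit of the complex with that name, 0.90 and 0.44. Both no longer passed in hepatocytes without WT replicate 1, at an adjusted p of 0.110 for Cenpe and 0.117 for Ndc80, with 0.00229 to 0.125 and 0.00188 to 0.128 across the alternatives. Nuf2 rose by 0.91 in hepatocytes, no longer past without WT replicate 1 (0.166), 2 (0.183) or 3 (0.154) or Cdk1 Liv-/- replicate 1 (0.188) or 2 (0.183) (adjusted p from 0.0128 to 0.188 over all alternatives), and by 0.51 in whole liver. Spc24 rose by 1.11 on the log2 scale in hepatocytes, no longer past without WT replicate 1 (0.117) or Cdk1 Liv-/- replicate 2 (0.1003) (adjusted p from 0.00658 to 0.117 over all alternatives), and was at 0.28 in whole liver (adjusted p = 0.332). Cenpf was at 0.98 and 0.36 and did not pass, with overlap in both compartments, but did in hepatocytes without Cdk1 Liv-/- replicate 3 (0.0574, with 0.0514 to 0.360) and in whole liver without Cdk1 Liv-/- replicate 2 (0.0226, with 0.0226 to 0.525).

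Birc5 and Cdca8 encode survivin and borealin of the chromosomal passenger complex, which corrects faulty attachments. Birc5 (ENSMUSG00000017716) was at 23.7, 17.9 and 23.5 FPKM in WT and 49.97, 52.97 and 28.9 FPKM in Cdk1 Liv-/- hepatocytes, and at 26.6, 23.0 and 19.0 and 27.7, 24.1 and 31.5 FPKM in whole liver. The genotypes were apart in hepatocytes and overlapped in whole liver, where the change was 0.28 (SE 0.15, limma's adjusted p = 0.198). Its change in hepatocytes was 0.96 (SE 0.25, adjusted p = 0.0621), no longer past without WT replicate 1 (0.135), 2 (0.144) or 3 (0.118) or Cdk1 Liv-/- replicate 1 (0.155) or 2 (0.152) (adjusted p from 0.0102 to 0.155 over all alternatives). Cdca8 (ENSMUSG00000028873) was at 5.19, 3.88 and 5.41 FPKM in WT and 16.0, 17.7 and 10.4 FPKM in Cdk1 Liv-/- hepatocytes, and at 5.91, 6.08 and 4.85 and 10.4, 7.5 and 11.9 FPKM in whole liver. No libraries overlapped between genotypes, and the change was 1.49 (SE 0.23, adjusted p = 0.0134) in hepatocytes and 0.75 (SE 0.18, adjusted p = 0.0254) in whole liver.

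Among 8 kinesins, the motors that move along microtubules, 6 passed in hepatocytes, with a median of 1.13, and 7 in whole liver, with a median of 0.55 (0.37 past the all-gene median). Kif22 (ENSMUSG00000030677), a motor on chromosome arms, was at 6.12, 5.59 and 8.11 FPKM in WT and 18.1, 16.8 and 7.93 FPKM in Cdk1 Liv-/- hepatocytes. Levels in whole liver were 8.32, 6.97 and 5.91 FPKM in WT and 11.4, 12.1 and 14.6 FPKM in Cdk1 Liv-/-. Cdk1 Liv-/- hepatocyte replicate 3 lay below WT replicate 3, while whole liver did not overlap. In hepatocytes its change of 0.99 (SE 0.32, limma's adjusted p = 0.109) did not pass, but did without Cdk1 Liv-/- replicate 3 (0.0218, with 0.0218 to 0.252 across the alternatives). The change in whole liver was 0.81 (SE 0.15, adjusted p = 0.0118). Kif11 (ENSMUSG00000012443), which pushes the spindle poles apart, was at 4.3, 2.8 and 3.51 FPKM in WT and 8.15, 12.6 and 6.8 FPKM in Cdk1 Liv-/- hepatocytes. The whole liver libraries gave 3.27, 3.13 and 2.45 FPKM in WT and 4.11, 3.78 and 4.9 FPKM in Cdk1 Liv-/-. Its Cdk1 Liv-/- hepatocyte libraries lay above all others. The changes were 1.23 (SE 0.25, adjusted p = 0.0330) and 0.47 (SE 0.14, adjusted p = 0.0442), 0.29 above the median of all genes, and the second no longer passed without Cdk1 Liv-/- replicate 3 (0.112) (adjusted p from 0.0313 to 0.194 over all alternatives).

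Kif18a (ENSMUSG00000027115), which damps the swings of chromosomes at the equator, was at 1, 0.69 and 0.8 FPKM in WT and 1.97, 3.12 and 1.95 FPKM in Cdk1 Liv-/- hepatocytes. For whole liver the values were 0.86, 0.85 and 0.83 FPKM in WT and 1.36, 1.14 and 1.23 FPKM in Cdk1 Liv-/-. The 3 levels, WT, Cdk1 Liv-/- whole liver and Cdk1 Liv-/- hepatocytes, followed in that order without overlap. The changes were 1.08 (limma's adjusted p = 0.0278) and 0.37 (adjusted p = 0.0189), and the difference between them was 0.71 (SE 0.22, adjusted p = 0.0980). The change in whole liver did not pass with median-ratio size factors (0.105) or in a fit of all 12 libraries (0.111), with limma's adjusted p from 0.00786 to 0.111 across the alternatives. Kif4, a motor of condensed chromosomes, had changes of 1.44 and 0.70. Kif2c, which takes microtubule ends apart, had changes of 1.31 and 0.77, the first no longer past without WT replicate 1 (0.101) or Cdk1 Liv-/- replicate 1 (0.106) (adjusted p from 0.00376 to 0.124 over all alternatives). Kif18b rose by 1.19 in hepatocytes, no longer past without WT replicate 1 (0.146), 2 (0.144) or 3 (0.111) or Cdk1 Liv-/- replicate 1 (0.144) or 2 (0.119) (adjusted p from 0.00588 to 0.157 over all alternatives), and by 0.64 in whole liver. Kif15, a partner motor of Kif11, rose by 0.82 and 0.35. It no longer passed in hepatocytes without WT replicate 1 (0.127), 2 (0.133) or 3 (0.127) or Cdk1 Liv-/- replicate 1 (0.121) or 2 (0.104) (adjusted p from 0.00589 to 0.151 over all alternatives), and in whole liver without WT replicate 1 (0.162) or 3 (0.144) or Cdk1 Liv-/- replicate 3 (0.121) (adjusted p from 0.0318 to 0.232 over all alternatives). Kif14, needed for cytokinesis, was the least abundant of the 53 genes. It was at 0.77, 0.24 and 0.31 FPKM in WT and 0.54, 1.51 and 0.55 FPKM in Cdk1 Liv-/- hepatocytes, overlapped there and did not pass in either compartment (limma's adjusted p = 0.365 and 0.157). In whole liver its genotypes did not overlap, and it passed by the two-sample test with q-values named in the study's methods (q = 0.0305). Its log2 fold change in hepatocytes was 0.51, and 0.82 and 0.35 with pseudocounts of 0.1 and 1.

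The 7 spindle assembly factors had the largest median change of the roles in each compartment, and all 7 were called in hepatocytes, with a median of 1.68. All 7 passed in whole liver, with a median of 0.95 (0.77 past the all-gene median). Psrc1 (ENSMUSG00000068744), a microtubule-binding protein of the spindle, was at 1.42, 1.02 and 1.77 FPKM in WT and 24.9, 23.9 and 20.6 FPKM in Cdk1 Liv-/- hepatocytes. In whole liver it was at 1.82, 1.82 and 1.34 FPKM in WT and 19.95, 23.2 and 20.6 FPKM in Cdk1 Liv-/-. The Cdk1 Liv-/- libraries of both compartments lay within the same narrow band, more than 10 times above every WT library. Its log2 fold change was the largest of the 53 genes in each compartment, 3.65 (SE 0.18, limma's adjusted p = 0.000522) and 3.34 (SE 0.12, adjusted p = 0.000143). The difference between the compartments was 0.31 (SE 0.22, adjusted p = 0.425). Ckap2 (ENSMUSG00000037725), which nucleates spindle microtubules, was at 5, 3.32 and 3.91 FPKM in WT and 24.2, 28.4 and 14.03 FPKM in Cdk1 Liv-/- hepatocytes. Its whole liver values were 4.29, 4.21 and 3.41 FPKM in WT and 13.6, 10.5 and 17.5 FPKM in Cdk1 Liv-/-. No library overlapped between genotypes, and the changes were 2.27 (SE 0.28, adjusted p = 0.00688) and 1.66 (SE 0.19, adjusted p = 0.00356).

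Hmmr, a microtubule-bound partner of Tpx2 at spindle poles, was at 4.42, 2.71 and 3.68 FPKM in WT and 16.2, 22.0 and 10.7 FPKM in Cdk1 Liv-/- hepatocytes. Whole liver libraries held it at 3.18, 2.6 and 2.66 FPKM in WT and 5.71, 4.96 and 7.23 FPKM in Cdk1 Liv-/-. Its Cdk1 Liv-/- hepatocyte libraries stood above all others, and the difference between the changes, 1.04 (SE 0.34), did not pass (limma's adjusted p = 0.105). Dlgap5, which stabilises the microtubules that reach chromosomes, had changes of 1.68 and 1.01, and Tpx2, the activator of Aurka, 1.58 and 0.83. Nusap1 had changes of 1.31 and 0.75, the first no longer past without WT replicate 1 (0.101) or 2 (0.106) or Cdk1 Liv-/- replicate 1 (0.116) (adjusted p from 0.00444 to 0.118 over all alternatives). Ckap2l had changes of 1.19 and 0.52, the first no longer past without WT replicate 1 (0.122), 2 (0.117) or 3 (0.103) or Cdk1 Liv-/- replicate 1 (0.113) (adjusted p from 0.00404 to 0.127 over all alternatives).

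The genes of anaphase and mitotic exit were divided. Of 6, 3 passed in hepatocytes, all 3 with a log2 fold change above 1, and 5 in whole liver, with medians of 0.88 and 0.39, the second 0.21 above that of all genes. Ube2c (ENSMUSG00000001403), the enzyme that hands ubiquitin to substrates of the anaphase-promoting complex, was the most abundant of the 53 by mean FPKM. It was at 18.4, 14.6 and 20.7 FPKM in WT and 85.3, 99.5 and 44.5 FPKM in Cdk1 Liv-/- hepatocytes, and at 19.0, 16.3 and 13.1 and 41.2, 39.0 and 58.0 FPKM in whole liver. The genotypes lay far apart in both compartments, and Cdk1 Liv-/- hepatocyte replicate 3 fell among the whole liver libraries of its genotype. Its changes were 2.00 (SE 0.31, limma's adjusted p = 0.0142) and 1.48 (SE 0.20, adjusted p = 0.005098), the second 1.29 above the median of all genes. Cdca3 (ENSMUSG00000023505), a substrate of that complex, was at 20.4, 15.8 and 19.8 FPKM in WT and 47.8, 57.3 and 27.1 FPKM in Cdk1 Liv-/- hepatocytes, and at 20.7, 18.4 and 16.9 and 24.9, 20.8 and 30.6 FPKM in whole liver. The genotypes did not overlap, but in whole liver they almost touched. Its changes were 1.16 (SE 0.28, adjusted p = 0.0514), no longer past without WT replicate 1 (0.122), 2 (0.123) or 3 (0.109) or Cdk1 Liv-/- replicate 1 (0.135) or 2 (0.114) (adjusted p from 0.00625 to 0.135 over all alternatives), and 0.43 (SE 0.15, adjusted p = 0.0781), no longer past without WT replicate 1 (0.108), 2 (0.171) or 3 (0.195) or Cdk1 Liv-/- replicate 1 (0.143) or 3 (0.153) (adjusted p from 0.0346 to 0.392 over all alternatives).

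Cdc20, which activates the complex at anaphase, was at 14.1, 8.92 and 15.1 FPKM in WT and 55.5, 60.4 and 25.7 FPKM in Cdk1 Liv-/- hepatocytes, and at 16.6, 12.8 and 11.4 and 29.9, 23.5 and 39.2 FPKM in whole liver. No library overlapped between genotypes, with changes of 1.79 and 1.14. Fzr1, the activator that takes over after anaphase, was at 6.44, 6.38 and 7.29 FPKM in WT and 7.24, 8.16 and 5.93 FPKM in Cdk1 Liv-/- hepatocytes, and at 7.7, 8.65 and 6.36 and 9.6, 9.78 and 9.82 FPKM in whole liver. The hepatocyte groups overlapped, and the change of 0.071 (limma's adjusted p = 0.780) turned to -0.00039 with median-ratio size factors and to -0.028 without Cdk1 Liv-/- replicate 2. Whole liver gave a change of 0.35 (adjusted p = 0.0553), no longer past without WT replicate 1 (0.126) or Cdk1 Liv-/- replicate 1 (0.105), 2 (0.116) or 3 (0.128) (adjusted p from 0.0380 to 0.331 over all alternatives). Pttg1 (ENSMUSG00000020415), the securin that holds separase inactive, had the smallest change of the 53 genes in whole liver. It was at 17.2, 15.2 and 16.7 FPKM in WT and 17.2, 19.6 and 15.6 FPKM in Cdk1 Liv-/- hepatocytes, and at 19.98, 21.4 and 18.1 and 21.2, 21.8 and 21.0 FPKM in whole liver. All 12 values lay close together, with overlap in both compartments. In hepatocytes the change was 0.083 (SE 0.11, limma's adjusted p = 0.655), which turned to -0.0011 without Cdk1 Liv-/- replicate 2. The change in whole liver was 0.11 (SE 0.071, adjusted p = 0.277), -0.073 from the median of all genes, and turned to -0.11 with median-ratio size factors. Espl1, the separase itself, was at 0.61 in hepatocytes (adjusted p = 0.171) and rose by 0.30 in whole liver, no longer past without WT replicate 1 (0.116), 2 (0.146) or 3 (0.181) or Cdk1 Liv-/- replicate 2 (0.122) or 3 (0.166) (adjusted p from 0.0356 to 0.308 over all alternatives). In hepatocytes Espl1 did pass in a fit of all 12 libraries (limma's adjusted p = 0.0447, with 0.0447 to 0.345 across the alternatives).

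Of the 7 genes of condensin and chromosome structure, 6 passed in each compartment, with medians of 0.96 and 0.48, the second 0.30 above that of all genes. Top2a (ENSMUSG00000020914), the topoisomerase that untangles sister chromatids, was at 20.8, 17.8 and 25.9 FPKM in WT and 51.0, 56.7 and 27.0 FPKM in Cdk1 Liv-/- hepatocytes. Levels in whole liver were 25.9, 26.0 and 21.4 FPKM in WT and 38.0, 32.3 and 40.1 FPKM in Cdk1 Liv-/-. In hepatocytes replicate 3 of Cdk1 Liv-/- was only just above replicate 3 of WT. Its change there was 0.99 (SE 0.30, limma's adjusted p = 0.0874), no longer past without WT replicate 1 (0.197), 2 (0.194) or 3 (0.121) or Cdk1 Liv-/- replicate 1 (0.200) or 2 (0.201) (adjusted p from 0.0135 to 0.201 over all alternatives). In whole liver the change was 0.58 (SE 0.11, adjusted p = 0.0149), which did not pass in a fit of all 12 libraries (0.101, with 0.0101 to 0.101 across the alternatives). Smc4 (ENSMUSG00000034349), an ATPase shared by both condensins, was at 16.1, 12.2 and 14.8 FPKM in WT and 30, 34.8 and 21.2 FPKM in Cdk1 Liv-/- hepatocytes. The whole liver libraries gave 16.5, 14.4 and 13.2 FPKM in WT and 20.7, 22.0 and 23.2 FPKM in Cdk1 Liv-/-. The genotypes did not overlap in either. The changes were 0.95 (SE 0.20, adjusted p = 0.0346), no longer past without Cdk1 Liv-/- replicate 1 (0.101) (adjusted p from 0.00235 to 0.101 over all alternatives), and 0.57 (SE 0.093, adjusted p = 0.00901).

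Ncapg (ENSMUSG00000015880), a subunit of condensin I, was at 4.26, 3.14 and 3.96 FPKM in WT and 12.4, 13.5 and 7.86 FPKM in Cdk1 Liv-/- hepatocytes. For whole liver the values were 4.1, 3.94 and 3.81 FPKM in WT and 4.98, 5.3 and 7.01 FPKM in Cdk1 Liv-/-. All Cdk1 Liv-/- hepatocyte libraries lay above all others. The changes were 1.43 (SE 0.23, limma's adjusted p = 0.0147) and 0.48 (SE 0.13, adjusted p = 0.0363), and the difference between them was 0.95 (SE 0.27, adjusted p = 0.0818). With median-ratio size factors the change in whole liver was 0.28 and did not pass (limma's adjusted p = 0.173, with 0.0244 to 0.173 across the alternatives). Ncaph, the clamp of the same complex, had changes of 1.17 and 0.62. Ncapd2 rose by 0.80 in hepatocytes, no longer past without WT replicate 1 (0.197), 2 (0.191) or 3 (0.112) or Cdk1 Liv-/- replicate 1 (0.194) or 2 (0.195) (adjusted p from 0.0232 to 0.197 over all alternatives), and was at 0.40 in whole liver (adjusted p = 0.124). In whole liver it passed with a filter of 1 FPKM, with FPKM rescaled to the same sum and by the two-sample test with q-values (0.0756 to 0.466 across the alternatives). Smc2, the partner of Smc4, had changes of 0.96 and 0.47, the first no longer past without WT replicate 1 (0.114), 2 (0.186) or 3 (0.193) or Cdk1 Liv-/- replicate 1 (0.147) or 2 (0.146) (adjusted p from 0.00989 to 0.193 over all alternatives). Mki67, the coat of mitotic chromosomes and a usual marker of cycling cells, was at 9.2, 5.49 and 6.99 FPKM in WT and 11.1, 17.8 and 8.14 FPKM in Cdk1 Liv-/- hepatocytes. In whole liver it was at 6.16, 5.61 and 5.2 FPKM in WT and 6.69, 6.32 and 8.05 FPKM in Cdk1 Liv-/-. Its hepatocyte groups overlapped through WT replicate 1, and the change of 0.69 did not pass (limma's adjusted p = 0.202). It did in a fit of all 12 libraries (0.0668, with 0.0668 to 0.403 across the alternatives). In whole liver the change was 0.28 (adjusted p = 0.0946), 0.10 above the median of all genes, and no longer past without WT replicate 1 (0.119), 2 (0.192) or 3 (0.224) or Cdk1 Liv-/- replicate 1 (0.133) or 3 (0.199) (adjusted p from 0.0533 to 0.651 over all alternatives).

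Fam64a (ENSMUSG00000020808), a protein of proliferating cells linked to the passage into anaphase, had the lowest change of the 53 genes in hepatocytes. It was at 0.72, 0.46 and 1.75 FPKM in WT and 0.31, 0.97 and 0.3 FPKM in Cdk1 Liv-/- hepatocytes. Its whole liver values were 1.61, 1.52 and 1.57 FPKM in WT and 2.56, 2.2 and 2.84 FPKM in Cdk1 Liv-/-. WT hepatocyte replicate 3 stood slightly above WT whole liver, and the other 5 hepatocyte libraries lay below every whole liver library. The change in hepatocytes was -0.49 (SE 0.39, limma's adjusted p = 0.453), and -0.14 without WT replicate 3 (adjusted p = 0.834, with 0.276 to 0.834 across the alternatives). Whole liver gave a change of 0.55 (SE 0.10, adjusted p = 0.0116), 0.37 above the median of all genes, and did not pass in a fit of all 12 libraries (0.208, with 0.00833 to 0.208 across the alternatives).

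**Figure D5:**
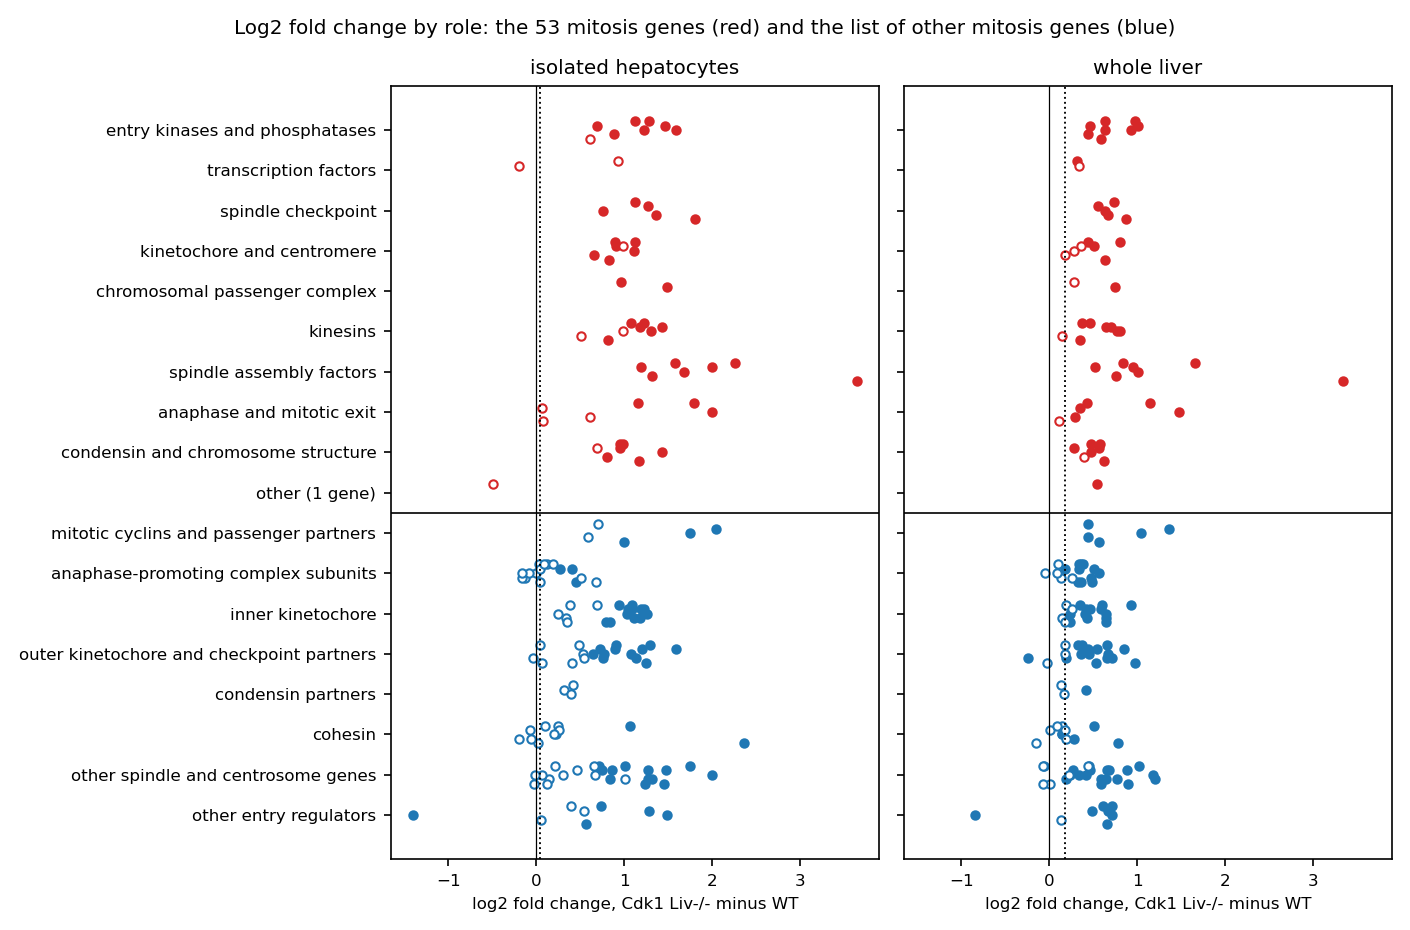
Log2 fold change, Cdk1 Liv-/- minus WT, of the 53 genes (red) and of the 103 other mitosis genes (blue) by role in each compartment, filled where the adjusted p passed, with dotted lines at the medians of all genes (0.049 and 0.18). Psrc1 is the point farthest to the right and Cdk1 the point farthest to the left, and most cohesin genes lie near the dotted line in hepatocytes.

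A separate list holds 103 other genes of mitosis, Cdk1 included. In hepatocytes 49 of them were higher past the adjusted p, against 12.1% of all genes, and 1 lower, which was Cdk1, against 6.61%, and the median log2 fold change was 0.59. The count higher was 34, 36 and 37 without WT replicates 1, 2 and 3 and 37, 36 and 54 without Cdk1 Liv-/- replicates 1, 2 and 3. In whole liver 74 were higher, against 38.0% of all genes, and 2 lower, Cdk1 and Mad1l1, against 7.53%, with a median of 0.41 (0.23 past the all-gene median). There the count higher was 58, 70 and 63 without WT replicates 1, 2 and 3 and 65, 68 and 60 without Cdk1 Liv-/- replicates 1, 2 and 3, and the count lower 1, 1 and 3 without WT replicates 1, 2 and 3 and 1, 3 and 1 without Cdk1 Liv-/- replicates 1, 2 and 3. Cyclin B, the partner of Cdk1, stood out among them. Ccnb1 was at 13.4, 8.11 and 11.1 FPKM in WT and 50.9, 61.8 and 29.8 FPKM in Cdk1 Liv-/- hepatocytes, and at 10.7, 8.51 and 8.75 and 25.9, 18.9 and 30.8 FPKM in whole liver. The groups were far apart, with changes of 2.04 (limma's adjusted p = 0.0121) and 1.37 (adjusted p = 0.00568). Ccnb2 changed by 1.75 and 1.05. Ccna2, for cyclin A, was at 0.71 (adjusted p = 0.179) and 0.44 (adjusted p = 0.0136), and Aurkb, the kinase of the passenger complex, at 0.59 (adjusted p = 0.242) and 0.44 (adjusted p = 0.0359). Of the 5 mitotic cyclins and passenger partners, 3 were higher past the adjusted p in hepatocytes, against 12.1% of all genes. That count was 2, 2 and 3 without WT replicates 1, 2 and 3. It was 2, 2 and 5 without Cdk1 Liv-/- replicates 1, 2 and 3. Of 8 regulators of entry on this list, 4 were higher and 1, Cdk1, lower in hepatocytes (median 0.55), and 6 higher and 1 lower in whole liver (median 0.64, or 0.45 past the all-gene median). These counts stayed the same without any single library. Among the 8, Mastl, which shuts off the phosphatase that opposes Cdk1, rose by 1.49 and 0.72, and Pkmyt1, an inhibitory kinase of Cdk1, by 1.28 in hepatocytes.

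The roles of this list are read against the same shares, 12.1% in hepatocytes and 38.0% in whole liver. Of 17 inner kinetochore genes, 12 passed in hepatocytes and 13 in whole liver. The count of 12 was 8, 9 and 9 without WT replicates 1, 2 and 3 and 10, 8 and 10 without Cdk1 Liv-/- replicates 1, 2 and 3. That of 13 was 9, 11 and 11 without WT replicates 1, 2 and 3 and 11 without Cdk1 Liv-/- replicate 1. Examples are Cenpi at 1.26 and Cenpu at 1.23 in hepatocytes and Cenpt at 0.93 in whole liver. Among 19 outer kinetochore and checkpoint partners, 12 and 15 were higher, the first count being 7, 7 and 8 without WT replicates 1, 2 and 3 and 8, 8 and 14 without Cdk1 Liv-/- replicates 1, 2 and 3 and the second 11, 13 and 13 without WT replicates 1, 2 and 3 and 13, 14 and 10 without Cdk1 Liv-/- replicates 1, 2 and 3. Sgo2a, a guardian of centromeric cohesion, was at 1.59 in hepatocytes, Mad2l2 at 0.98 in whole liver, and Mad1l1, the anchor of Mad2l1, at -0.040 (limma's adjusted p = 0.875) and -0.24 (adjusted p = 0.0822). In 24 other spindle and centrosome genes, 13 and 18 were higher, with Gtse1 at 2.00 and 1.18. The count of 13 was 10, 11 and 10 without WT replicates 1, 2 and 3 and 10, 10 and 16 without Cdk1 Liv-/- replicates 1, 2 and 3. That of 18 was 14, 18 and 14 without WT replicates 1, 2 and 3 and 17 without Cdk1 Liv-/- replicate 1. Kif23, a motor of the midzone, was at -0.0070 in hepatocytes (adjusted p = 0.996). The subunits of the anaphase-promoting complex and its enzymes had a median of 0.066 in hepatocytes, with 3 of 16 higher, and 0.34 in whole liver, with 11. The count of 3 was 1, 1 and 1 without WT replicates 1, 2 and 3 and 1, 2 and 2 without Cdk1 Liv-/- replicates 1, 2 and 3. That of 11 was 9, 11 and 10 without WT replicates 1, 2 and 3 and 9 without Cdk1 Liv-/- replicate 1. In cohesin, which holds sister chromatids together, 2 of 11 were higher in hepatocytes, Esco2 and Cdca5, near the share of all genes, and 5 of 11 in whole liver, with a median of 0.15 (-0.032 from the all-gene median). The count of 5 was 3, 5 and 3 without WT replicates 1, 2 and 3 and 3, 3 and 3 without Cdk1 Liv-/- replicates 1, 2 and 3. The ring subunit Smc3 was at -0.064 (limma's adjusted p = 0.793). Esco2, the acetyltransferase that locks cohesin on DNA, was at 4, 3.33 and 3.3 FPKM in WT and 22, 23.4 and 16.2 FPKM in Cdk1 Liv-/- hepatocytes, and at 3.92, 3.38 and 2.81 and 6.91, 4.82 and 6.84 FPKM in whole liver. It was far higher in Cdk1 Liv-/- hepatocytes than in any other group, and the difference between its changes was 1.58 (SE 0.25, adjusted p = 0.0242). The 3 condensin partners that are not among the 53 had a median of 0.40 in hepatocytes, where 0 of them passed limma's adjusted p. There 1 had an unadjusted p under 0.05 by limma, against 4939 of the 17386 genes tested. In whole liver 1 of the 3, Ncaph2, passed.

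Markers of liver cell types were counted in the same way, and their part in the results of the 53 genes was not tested. Of all genes, 12.1% were higher and 6.61% lower in hepatocytes, and 38.0% higher and 7.53% lower in whole liver. No marker of the 8 lists was at 0 in any of the 12 libraries. The sinusoidal endothelial list, with Stab1 as its most abundant gene, had 7 of 8 markers lower in Cdk1 Liv-/- hepatocytes and 1 higher in Cdk1 Liv-/- whole liver. The count of 7 was 3, 8 and 6 without WT replicates 1, 2 and 3 and 4, 3 and 3 without Cdk1 Liv-/- replicates 1, 2 and 3, and the count of 1 was 0, 1 and 1 without WT replicates 1, 2 and 3 and 0, 1 and 0 without Cdk1 Liv-/- replicates 1, 2 and 3. Its summed FPKM was 134, 89.3 and 255 in WT hepatocytes, 62.6, 39.9 and 47.1 in Cdk1 Liv-/- hepatocytes, 129, 149 and 180.4 in WT whole liver and 158, 204 and 161 in Cdk1 Liv-/- whole liver. Kupffer cell and macrophage markers, led by Cd5l, had 1 of 8 lower in hepatocytes and 3 higher in whole liver. The count of 1 was 0, 8 and 0 without WT replicates 1, 2 and 3 and 0, 0 and 0 without Cdk1 Liv-/- replicates 1, 2 and 3. In hepatocytes 6 of the 8 had an unadjusted p under 0.05 by limma, against 4939 of the 17386 genes tested. All 8 log2 fold changes were below 0 there, at a median of -1.17. Their sums were 273, 145 and 496 in WT hepatocytes, 167, 126 and 107 in Cdk1 Liv-/- hepatocytes, 371, 420.4 and 426 in WT whole liver and 492, 672 and 527 in Cdk1 Liv-/- whole liver. In both lists WT hepatocyte replicate 3 was the highest of the hepatocyte libraries and lay above all WT whole liver libraries. Erythroid markers, led by Hbb-bs, had 3 of 10 lower in each compartment, among them Klf1, a regulator of red cell precursors. In hepatocytes the count was 1, 1 and 1 without WT replicates 1, 2 and 3 and 1, 3 and 1 without Cdk1 Liv-/- replicates 1, 2 and 3. In whole liver it was 3, 3 and 3 without WT replicates 1, 2 and 3 and 2 without Cdk1 Liv-/- replicate 1. Higher there were 2 markers without WT replicate 3 and 1 without Cdk1 Liv-/- replicate 1. In whole liver 5 of the 10 erythroid markers had a log2 fold change above 0, at a median of 0.083 (-0.099 from the all-gene median). They summed to 210.4, 175 and 645 FPKM in WT hepatocytes, 109.6, 152 and 59.6 in Cdk1 Liv-/- hepatocytes, 1160.3, 1277 and 2228 in WT whole liver and 1189.6, 1822 and 1495 in Cdk1 Liv-/- whole liver. The B cell list, led by Cd79b, had 2 of 7 lower in hepatocytes (0, 4 and 2 without WT replicates 1, 2 and 3 and 0, 0 and 0 without Cdk1 Liv-/- replicates 1, 2 and 3) and 4 in whole liver (1, 2 and 0 without WT replicates 1, 2 and 3 and 0, 4 and 1 without Cdk1 Liv-/- replicates 1, 2 and 3), with sums of 3.13, 1.97 and 7.39, 1.48, 0.88 and 0.74, 15.2, 12.0 and 15.3 and 5.45, 12.4 and 9.39 FPKM in the same order of groups. In both lists the whole liver libraries of the genotypes overlapped in sum.

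Stellate cell and fibroblast markers, led by Col3a1, had 1 of 8 lower in hepatocytes (0, 4 and 0 without WT replicates 1, 2 and 3 and 0, 0 and 0 without Cdk1 Liv-/- replicates 1, 2 and 3) and 6 higher in whole liver (6, 6 and 6 without WT replicates 1, 2 and 3 and 6, 8 and 6 without Cdk1 Liv-/- replicates 1, 2 and 3). Their sums were 189, 114 and 379 FPKM in WT hepatocytes, 114, 114 and 97.5 in Cdk1 Liv-/- hepatocytes, 423, 416 and 467 in WT whole liver and 835, 1037 and 798 in Cdk1 Liv-/- whole liver. Neutrophil and monocyte markers, led by S100a9, had 1 of 8 higher in hepatocytes and 6 in whole liver (3, 2 and 5 without WT replicates 1, 2 and 3 and 8, 3 and 3 without Cdk1 Liv-/- replicates 1, 2 and 3), with sums of 13.97, 12.2 and 48.4, 21.8, 11.2 and 20.8, 70.4, 44.99 and 66.9 and 91.4, 307 and 245 FPKM in that order. In these lists Cdk1 Liv-/- whole liver stood highest, as it did not for most mitosis genes. Cholangiocyte markers, led by Spp1, had 4 of 5 higher in each compartment. In hepatocytes the count was 3, 3 and 3 without WT replicates 1, 2 and 3 and 3, 3 and 3 without Cdk1 Liv-/- replicates 1, 2 and 3. In whole liver it was 2, 3 and 2 without WT replicates 1, 2 and 3 and 2, 5 and 2 without Cdk1 Liv-/- replicates 1, 2 and 3. The sums of these markers were 19.6, 14.6 and 30.1, 66.8, 124 and 100.1, 59.4, 62.2 and 45.8 and 270.2, 139 and 259 FPKM. The hepatocyte list, led by Alb, had 2 of 7 higher and 2 lower in hepatocytes and 4 lower in whole liver. The count higher in hepatocytes was 1, 0 and 0 without WT replicates 1, 2 and 3 and 1, 1 and 0 without Cdk1 Liv-/- replicates 1, 2 and 3, the count lower there 1, 1 and 2 without WT replicates 1, 2 and 3 and 2, 2 and 2 without Cdk1 Liv-/- replicates 1, 2 and 3, and in whole liver 2, 2 and 2 without WT replicates 1, 2 and 3 and 4, 6 and 3 without Cdk1 Liv-/- replicates 1, 2 and 3. It summed to 80365, 89179 and 84745 FPKM in WT hepatocytes, 55705, 58001 and 53639 in Cdk1 Liv-/- hepatocytes, 83312, 81629 and 84766 in WT whole liver and 65062, 59267 and 63589 in Cdk1 Liv-/- whole liver. Hepatocyte markers were abundant in all 12 libraries, whole liver included, and lower in sum in both Cdk1 Liv-/- groups.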

How the data were processed

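Polyadenylated RNA of isolated hepatocytes and whole liver of WT and Cdk1 Liv-/- mice was sequenced in 12 libraries, 3 in each of 4 groups. According to the submitters' processing notes and the study's methods, libraries were made with the TruSeq Stranded kit and read as single-end 75 bp reads, checked with FastQC, aligned with STAR and quantified with RSEM 1.2.31 on mm10. The authors deposited FPKM per gene, and no normalization between libraries was applied to these values.

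Groups followed the labels. Values were taken as log2(FPKM + 0.5), and 17386 genes whose mean reached 0.1 FPKM were compared with limma 3.58.1 in R 4.3.3, with a variance trend and Benjamini-Hochberg adjustment. Python 3.11.15 was used for the promoters, depth and figures. Genotypes were compared in the 6 libraries of a compartment. Compartments, and the difference between the genotype changes, came from 1 fit of all 12 libraries. A gene passed where its adjusted p did not exceed 0.1, and was called where its log2 fold change also reached 1 in size. The code for the fit, the depth and the motifs was tested on simulated data.

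By rule, the genes given with full statistics were Plk1, the 1 or 2 members with the highest mean FPKM in each role, and those with the largest and smallest change in each genotype comparison. All 53 members could be named, with Cdk1, the 2 largest and 2 smallest changes in each role of the other mitosis genes and in that list, the most abundant gene of each marker list, and Xist and 4 Y-linked genes. Genes named or given full statistics beyond this rule were chosen after their values were seen. The members and lists were chosen with earlier results of these data known. The alternatives were pseudocounts of 0.1 and 1, a filter of 1 FPKM or none, median-ratio size factors, rescaling to the same sum, a term for the replicate number, the two-sample test with q-values named in the study's methods, other sets of libraries in the fit, an adjusted p of 0.05, and leaving out each library in turn. Leaving out both libraries that stood apart was chosen after seeing the data. The other alternatives and the thresholds were set before the deposited values were read, with those earlier results known.

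Read counts were not used here. From the steps between small FPKM values, 1 FPKM stood for about 50.0, 38.7 and 47.5 reads per kilobase in WT hepatocytes and 40.6, 39.7 and 35.0 in Cdk1 Liv-/- hepatocytes. In whole liver it stood for 41.8, 41.9 and 43.4 in WT and 47.7, 47.6 and 48.4 in Cdk1 Liv-/-. A gene at 1 FPKM thus rests on 35.0 to 50.0 reads per kilobase, where 75 bases are first taken off the length of its transcript. Values are listed to 2 decimals, which limits the genes near 0.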

Additional observations from a re-analysis of the deposited data

Results flagged for a closer look

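Past limma's adjusted p of 0.1, the change between genotypes was larger in isolated hepatocytes than in whole liver for 3 of the 53 genes. This held for 2.35% of all genes. None of the 53 was past it in the other direction, against 7.49% of all genes. For Ttk the difference of the log2 fold changes was 0.94 (SE 0.27, adjusted p = 0.0818), from 1.80 in hepatocytes and 0.87 in whole liver. For Ncapg it was 0.95 (SE 0.27, adjusted p = 0.0818), from 1.43 and 0.48. For Kif18a it was 0.71 (SE 0.22, adjusted p = 0.0980), from 1.08 and 0.37. All 3 Cdk1 Liv-/- hepatocyte libraries lay above all 3 Cdk1 Liv-/- whole liver libraries for each of the 3 genes. Over 21 alternatives the adjusted p ran from 0.0521 to 0.184 for Ttk, from 0.0472 to 0.183 for Ncapg and from 0.0757 to 0.234 for Kif18a. Ttk passed in 7 of them, Ncapg in 8 and Kif18a in 3, where 1 alternative set the threshold at 0.05 in place of 0.1. Groups of 3 libraries were not tested for outliers.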

How the results depend on the processing

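The 42 genes higher in Cdk1 Liv-/- hepatocytes became 22 with no filter, with more genes tested, and 26 at an adjusted p of 0.05. The 6 genes called in whole liver became 3 with median-ratio size factors, and the median of the 53 genes there went from 0.58 to 0.37. For Cdk1 Liv-/- hepatocytes against whole liver, the 32 genes higher became 20 in a fit of the 6 libraries of the genotype, with fewer samples, and the 3 lower became 1 with median-ratio size factors. The 3 genes whose changes differed between compartments became 5 with a pseudocount of 1, 7 with median-ratio size factors, and 0 with no filter, at an adjusted p of 0.05 and without both libraries that stood apart, by limma. Without both, 1 gene was lower in WT hepatocytes than in WT whole liver. Where the construction of the alternative does not show it, the cause was not tested.

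The replicate numbers were not shown to mark pairs, since equally numbered libraries had deviations from their group means with a Pearson r of -0.32 to 0.24. With a term for the replicate number (replicate block), 15 genes passed in hepatocytes, 15 were called there, 27 no longer passed, Kif18a among them (limma's adjusted p = 0.111, with 0.000834 to 0.111 across the alternatives), and 0 differed between compartments by limma.

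Leaving out each library in turn gave 19 to 44 genes higher in hepatocytes, 19 to 40 called and 0 to 0 lower. Whole liver gave 37 to 44 higher, 3 to 9 called and 0 to 0 lower. WT hepatocytes against WT whole liver gave 0 to 0 higher and 0 to 1 lower, and Cdk1 Liv-/- hepatocytes against whole liver gave 16 to 44 higher and 3 to 4 lower. The difference between compartments gave 0 to 15 higher and 0 to 1 lower. The median log2 fold change ran from 0.90 to 1.38 in hepatocytes and from 0.50 to 0.63 in whole liver. Fzr1 in hepatocytes ran from -0.028 to 0.19 and Pttg1 from -0.0011 to 0.16. In each of these fits the same 18 of the 42 genes passed in hepatocytes and the same 35 of the 45 in whole liver, and 14 and 27 passed under every alternative.

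Among the changes between genotypes of single members, a direction reversed in 5 cases. Fzr1 in hepatocytes went to -0.00039 with median-ratio size factors and -0.028 without Cdk1 Liv-/- replicate 2, and Pttg1 in hepatocytes to -0.0011 without that library. With median-ratio size factors, Spc25 went to -0.040 and Pttg1 to -0.11 in whole liver. None of these passed under limma. The difference between compartments changed sign under an alternative for 4 members that had not passed, to as low as -0.30 for Cdc25b, -0.038 for Bub3 and -0.024 for Kif22, and as high as 0.12 for Pttg1. The cause was not tested. Kif14, the member with the lowest mean FPKM, went from 0.51 in hepatocytes to 0.82 with a pseudocount of 0.1 and 0.35 with 1. The number of reads behind each gene was not worked out.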
